A study of Homo sapiens with 4 samples.

Results

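Cyclins, cyclin-dependent kinases (CDKs), CDK inhibitors and genes with CDC names were examined among the RNAs bound by YTHDF1. Members were the protein-coding genes whose symbol is CCN plus a letter, CDK plus a number, CDKN plus a number, or CDC plus a number, a rule that reads names and no measured value. RefSeq holds 79 such genes, and 34 of them had at least 1 listed window, with 113 windows in all. The whole table listed 26819 windows in 7550 genes, of which 6679 were protein-coding and held 24754 windows.

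Cyclins are regulatory subunits that activate CDKs, and the waves of cyclin synthesis and breakdown order the steps of the cell cycle. A second branch of the same families, such as cyclin T with CDK9 and cyclin C with CDK8, acts on RNA polymerase II and on splicing instead. CDK inhibitors block the kinases, whereas the CDC genes were named after yeast cell division cycle mutants and encode proteins of very different function. YTHDF1 is a cytoplasmic reader of N6-methyladenosine (m6A), a methyl mark on adenosines of mRNA that is placed mainly within DRACH sequences.

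The data came from RNA immunoprecipitation sequencing (RIP-seq) in SNU638, an established gastric cancer cell line. YTHDF1-bound RNA (IP-YTHDF1) and total RNA (Input) were each sequenced from 2 biological replicates, giving 4 libraries. All cells overexpressed YTHDF1 and spent 24 h in medium free of serum before IFN-γ was added at 10 ng/ml for another 24 h, and the study's methods pulled down the tagged protein through FLAG. No group without overexpression or without IFN-γ was analysed here, so the windows describe an overexpressed reader in serum-deprived, IFN-γ-treated cells.

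The table gave 1 signal value, 1 p-value and 1 q-value per 50 bp window and did not tell the replicates apart. Values per library, their spread and the sequencing depth are therefore unknown, and the signal value is a score whose scale is not stated. The largest listed q-value was 0.05, and no gene had more than 9 listed windows. A gene without a listed window may be unbound, too weakly expressed or below the limit, which cannot be told apart because the table holds no expression. Of the epithelial markers, EPCAM, KRT8, KRT18 and KRT19 had listed windows and CDH1 had none, while 0 of 3 blood cell markers and 0 of 3 fibroblast markers were listed.

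A listed window was found in 34 of 79 family genes, or 43.0% (95% Wilson interval 32.7 to 54.0), beside 31.8% of the 20052 protein-coding genes in RefSeq. That background takes in genes of any expression level, because expression is unknown here. It also counts only the 6368 of 6674 listed coding symbols that matched RefSeq, whereas every member matched. At a q-value of at most 0.001 the share was 26.6% of the family and 21.2% of all coding genes. The cyclins were listed most often of the 4 name classes, with 14 of 27 genes (51.9%), and the CDC genes least often, with 7 of 21 (33.3%). CDKN genes stood at 5 of 10 and CDKs at 8 of 21 (38.1%). The intervals of these classes overlap widely, and no test was made of a family chosen by name.

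**Figure D1:**
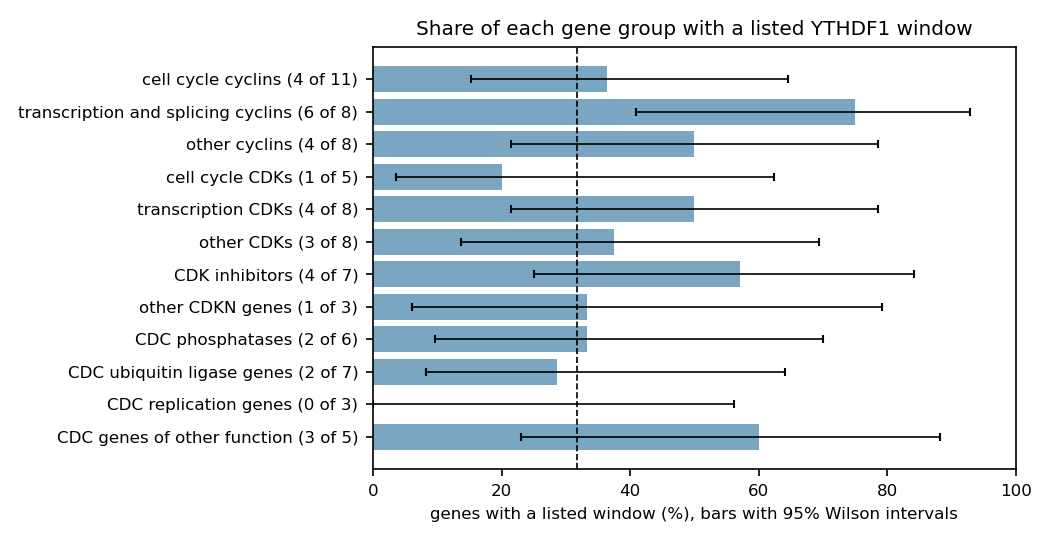
Share of the genes of each functional role with at least 1 listed window (%), with bars from 0 and 95% Wilson intervals; the dashed line marks the 31.8% of all RefSeq protein-coding genes. Transcription and splicing cyclins stood highest at 75.0%, the CDC replication genes at 0, and only the interval of the former lies wholly above the line. It is 1 of 12 roles, the intervals make no allowance for their number, and no test was run.

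By role, the cyclins of transcription and splicing were listed in a larger share than the cyclins and kinases that drive the cell cycle. Of the cyclins that act in transcription or splicing, 6 of 8 were listed (75.0%, Wilson interval 40.9 to 92.9), namely CCNC, CCNH, CCNL1, CCNL2, CCNT1 and CCNT2. Of the cyclins that drive the cell cycle, 4 of 11 were listed (36.4%, interval 15.2 to 64.6), namely CCNA2, CCNB1, CCND1 and CCND2. Among the CDKs of the cell cycle, CDK2 was the only listed gene of 5 (interval 3.62 to 62.4%), and CDK1, CDK3, CDK4 and CDK6 had no window. At a q-value of at most 0.001, CCNC (smallest q-value 0.007244) and CCNH (0.006277) would drop out, each with 1 window. Among the cell cycle cyclins CCNA2 (0.003175) and CCNB1 (0.001532) would drop out too. These intervals overlap, and the differences between roles were not tested. All 3 CDC genes of DNA replication, CDC6, CDC7 and CDC45, were without a window, for which the Wilson interval reaches 56.1%.

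Where they were listed, the members carried signal values like those of other genes. The strongest window per gene had a median signal value of 2.19, and that of other protein-coding genes a median of 2.22. Over all windows the median was 1.77 for the members and 1.83 for all coding genes, and the member windows ranged from 0.88 to 3.13 within a range of 0.70 to 9.46 for the whole table. A strongest value of at least 2 was seen in 23 of 34 members (67.6%), beside 69.5% of listed coding genes. A q-value of at most 0.001 was reached by 21 of 34 (61.8%), beside 66.8%. A single listed window was held by 13 of 34 members (38.2%), beside 29.0%, and 9 windows by 2 of 34 (5.88%), beside 12.8%.

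**Figure D2:**
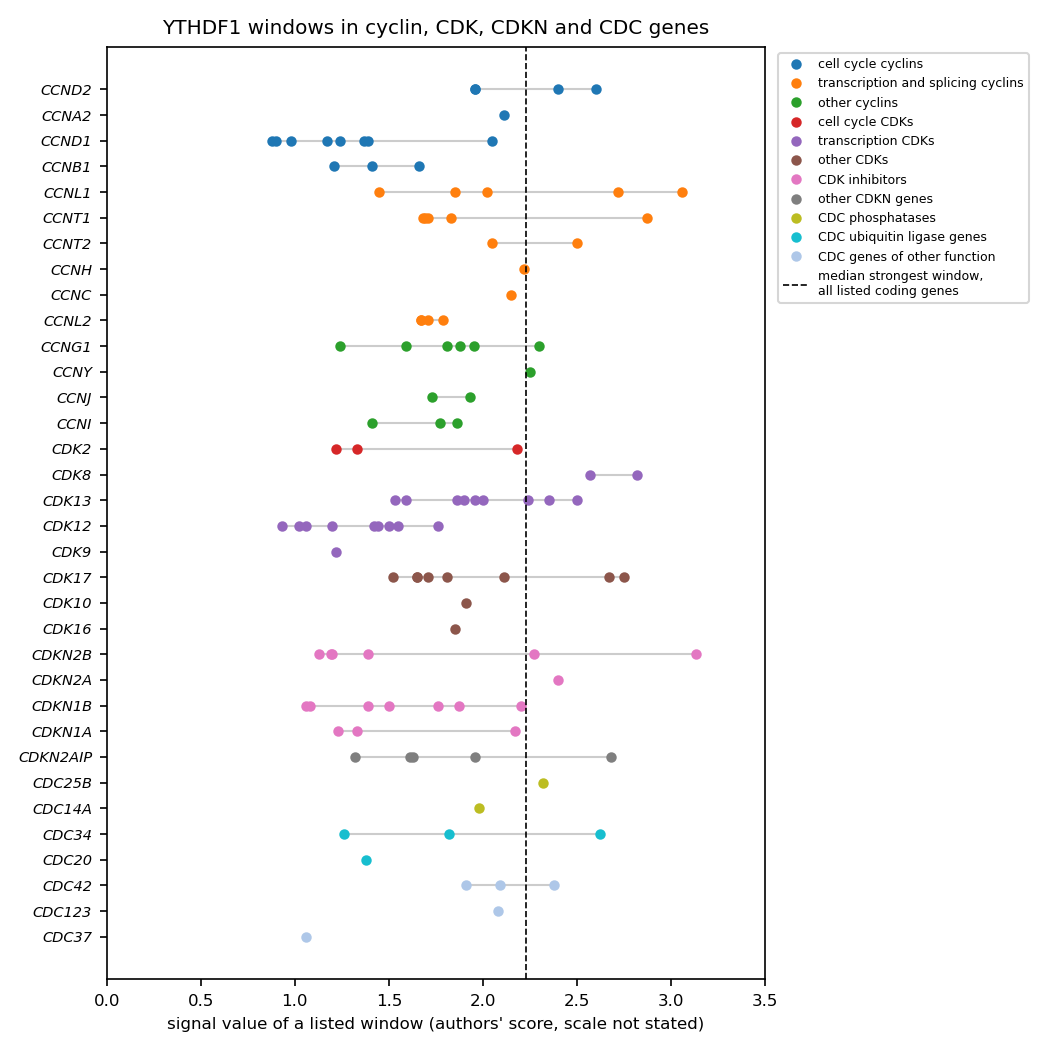
Signal value (the authors' score, no stated scale) of every listed window of the 34 member genes, coloured by role; the dashed line marks the median strongest window of all listed coding genes. CDKN2B at 3.13 and CCNL1 at 3.06 reach highest, and CDC37 at 1.06 has the lowest strongest window.

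By median, the windows of these genes lay closer to the 5′ end of the gene than those of other genes. Distances were taken along the genome, introns included, from the ends of the RefSeq gene interval (GRCh38.p14), because exon positions were not used here. Of the 113 member windows, 65 (57.5%) lay within 1000 bp of the 5′ end, beside 31.1% of all placed windows of coding genes and 31.0% of those of other coding genes. The median distance from the 5′ end was 551 bp for member windows and 7301 bp for the others. The strongest window lay within 1000 bp of the 5′ end in 20 of 34 members (58.8%), beside 37.8% of all placed coding genes. Windows of 1 gene are not independent of each other, and no test was made of the difference. Where the tested but unlisted windows lay is unknown, so these shares describe listed windows and could not be set against the positions tested.

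The 3′ end was rarely occupied in the members and in all coding genes, and the difference was not tested. Within 1000 bp of the 3′ end lay 1 of 113 member windows (0.885%), that of CDC25B, beside 4.33% of all placed windows. By strongest window, 1 of 34 members (2.94%) lay there, beside 5.71% of genes. Member genes were shorter, with a median length of 18.5 kb against 31.4 kb for the others, so the 5′ share was also taken within length classes. In genes up to 20 kb it was 60.7% for the members and 37.9% for the others, and in longer genes 54.4% and 27.9%.

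**Figure D3:**
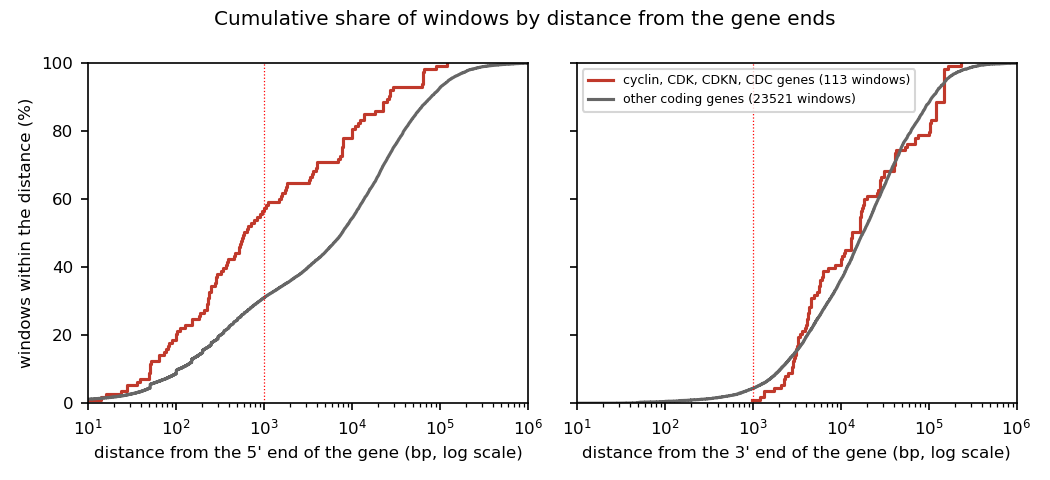
Cumulative share of windows (%) against the distance from the 5′ end (left) and 3′ end (right) of the gene (bp, log scale), for member windows and windows of other coding genes; the dotted line marks 1000 bp. At that line the member curve stands at 57.5% and the other at 31.0% on the left, and at 0.885% and 4.35% on the right.

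Not every member followed this pattern. A listed window near the 5′ end was present in 25 genes, in 14 of which all listed windows lay there. CCNY, CCNJ, CDC14A, CDC25B, CDC37, CDC42, CDK9, CDKN1A and CDKN2A had none. Of the 13 genes with 1 window, 7 had it near the 5′ end. Signal values were higher near the 5′ end in members and others alike, with medians of 1.87 near and 1.635 far in the members and of 1.97 and 1.78 in other coding genes.

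**Figure D4:**
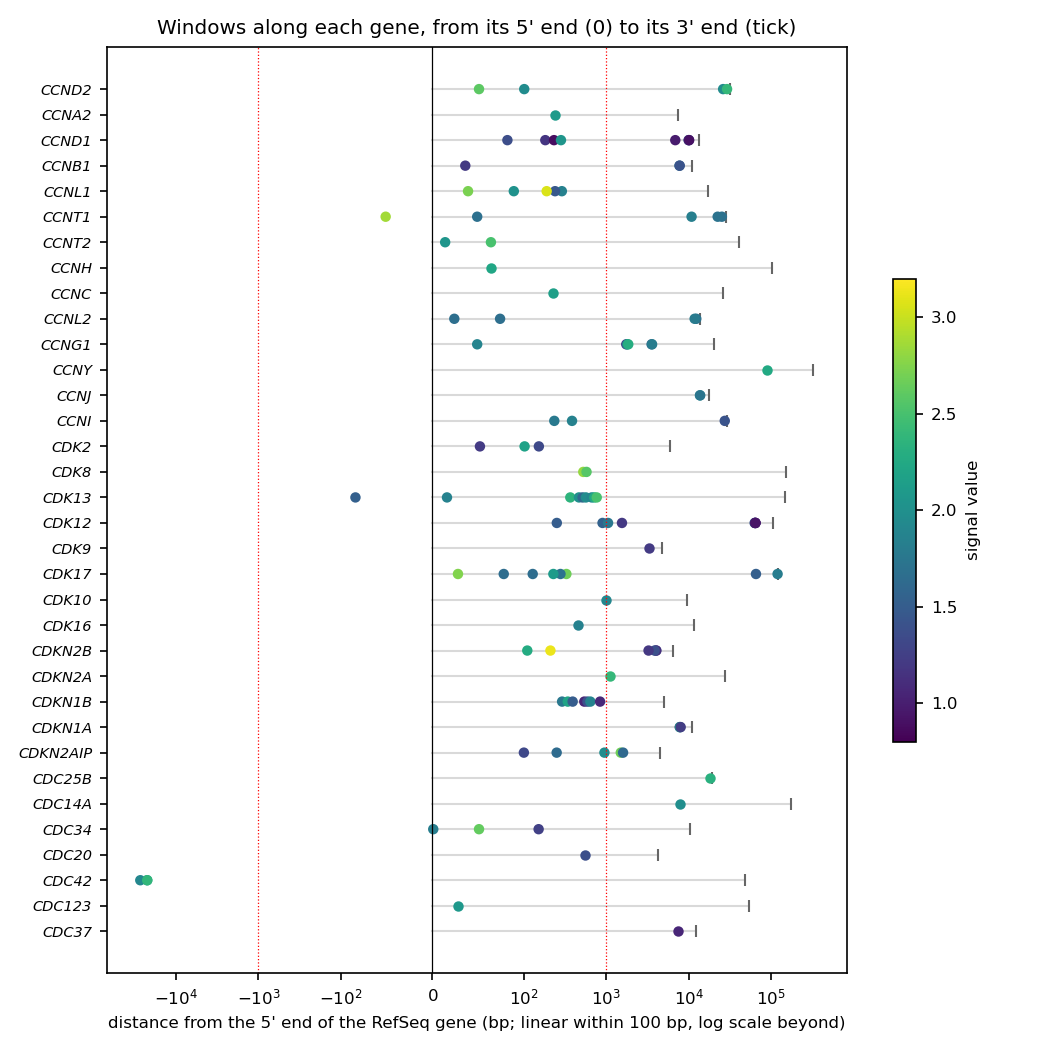
Position of each listed window along its gene, as the distance from the 5′ end (bp, linear within 100 bp and log scale beyond), with the 3′ end as a tick and the signal value as colour; dotted lines mark 1000 bp on either side. In CDK13 all 9 listed windows sit within 1000 bp of the start, and the 3 windows of CDC42 lie upstream of its RefSeq interval.

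Sequence was at hand for the 6 windows that RefSeq promoter entries cover (GRCh38.p14, 250 bases before to 50 after a gene start), and 30 bases of each are shown so that the letters of windows at or near gene starts can be read. The entries for CCNT1 and CDK13 are their own, while the windows of CDKN2A, CDK16 and CCNH were covered by entries of the other genes LOC124902130, LOC105373194 and LOC105379066, and that of CDKN2A lay beyond 1000 bp from its own 5′ end. They are written 5′ to 3′ on the strand of the window, with DRACH words in capitals. A DRACH word has 5 letters: A, G or T, then A or G, then A, then C, then A, C or T, which makes 18 words.
CCNT1, chr12:48716729-48716758, minus strand, signal value 2.87: cccgcacagcggatgtgggtcgcctcttag
CDK13, chr7:39950191-39950220, plus strand, signal value 1.53: ctcccctcccctGAACTtgcacccaacgtc
CDK13, chr7:39950272-39950301, plus strand, signal value 1.86: gcccgagccgagagcgcggccaaggccgct
CDKN2A, chr9:21994174-21994203, minus strand, signal value 2.40: ggccctcgtgctgatgctactgaggagcca
CDK16, chrX:47218775-47218804, plus strand, signal value 1.85: cactccgcgatcAGACCgctctgtgccgcg
CCNH, chr5:87412817-87412846, minus strand, signal value 2.22: atgcgtttgggttctcgtctgcAGACCctc

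A DRACH word stood on the transcript strand of 3 of the 6 full windows, those of CDK16 and CCNH and the first of CDK13, and on the other strand of 2. Among the last 50 bases of 35116 RefSeq promoter entries, 49.6% held such a word on the transcript strand and 50.6% on the other strand. The 6 windows had a GC content of 56.0% to 82.0%, beside a median of 60.0% in those promoter ends. The window with the highest signal of the 6, in CCNT1, held no DRACH word on either strand.

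Among the cell cycle cyclins, the D-type cyclins carried most windows. CCND1, cyclin D1, which activates CDK4 and CDK6 in G1, had 8 windows in 2 stretches and a further window between them. Near the 5′ end its signal values were 1.37, 1.17, 0.88 and 2.05 at 82, 182, 232 and 282 bp, the last with the smallest q-value of the gene (8.62e-09). A window at 6882 bp had a signal value of 0.98, and the 3 windows from 9982 to 10132 bp had 1.24, 1.39 and 0.90. The strongest value of this gene stood above those beside it, and its lowest was also the lowest of all 113 member windows.

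CCND2, cyclin D2, had 4 windows with signal values of 2.60, 1.96, 1.96 and 2.40 at 51, 101, 26201 and 29251 bp. It was the strongest of the cell cycle cyclins, but each of these windows coincided over all 50 bp with a window of AC008012.1, a gene annotated as protein-coding on the same strand. The 4 values of AC008012.1 were 2.58, 2.14, 2.14 and 2.38, and to which gene the reads belong cannot be told apart.

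CCNA2, cyclin A2 of S phase and G2, had 1 window at 239 bp with a signal value of 2.11 (q-value 0.003175). CCNB1, cyclin B1, which takes cells into mitosis with CDK1, had windows of 1.21 at 36 bp, 1.66 at 7736 bp and 1.41 at 7786 bp. Its strongest window was not its most certain one, since the q-values were 0.03228 for the window of 1.66 and 0.001532 for that of 1.41. CCND3, CCNE1 and CCNE2, the remaining D- and E-type cyclins, had no listed window.

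The transcription and splicing cyclins had a median strongest signal value of 2.36. CCNL1, cyclin L1, which acts with CDK11 in splicing, had 5 windows within 289 bp of its 5′ end. Counted from the 5′ end, their signal values were 2.72 at 39 bp, 2.02 at 89 bp, 3.06 at 189 bp, 1.45 at 239 bp and 1.85 at 289 bp. The q-values were 3.55e-15 at 39 bp and 1.07e-14 at 189 bp, the 2 smallest of all member windows. The listed windows of CCNL1 thus covered its first bases almost without a gap. By its p- and q-values 16 windows were tested in this 17027 bp gene, and the positions of the unlisted ones are unknown.

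CCNT1, cyclin T1, the partner of CDK9 in the elongation factor P-TEFb, had its strongest window just upstream of the RefSeq start, where the signal value was 2.87 (q-value 5.34e-12). A window at 49 bp had 1.68, and those at 10849, 22499 and 25299 bp had 1.83, 1.71 and 1.69. Apart from the window at the start, the values of CCNT1 lay close together. The other cyclins of this role had strongest values from 1.79 in CCNL2 to 2.50 in CCNT2.

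Of the other cyclins, CCNG1, cyclin G1, a p53 target, had 6 windows. The window at 49 bp had a signal value of 1.88, the 3 touching windows from 1749 to 1849 bp had 1.24, 1.95 and 2.30, and the pair at 3549 and 3599 bp had 1.59 and 1.81. CCNY, cyclin Y, which brings CDK14 and CDK16 to membranes, had 1 window of 2.25 deep inside its 325643 bp gene, at 90051 bp. CCNI at 1.86 and CCNJ at 1.93 were the lower members of this role.

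CDK2, the partner of cyclins E and A at the start of S phase, had 3 touching windows with signal values of 1.22, 2.18 and 1.33 at 52, 102 and 152 bp. The middle window had a q-value of 2.52e-10 and the outer ones 0.006573 and 0.04628, so the signal value was lower in the neighbouring window on both sides.

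Of the transcription CDKs, 4 of 8 were listed. CDK8, a kinase of the Mediator complex, had touching windows of 2.82 and 2.57 at 526 and 576 bp. CDK13, which phosphorylates RNA polymerase II with cyclin K, had 9 windows, from just upstream of its start to 766 bp, with signal values of 1.53, 1.86, 2.35, 2.00, 1.59, 1.96, 1.90, 2.24 and 2.50 in 5′ to 3′ order. CDK12, its close relative, also had 9 windows, but its strongest value was 1.76, at 1051 bp, and 5 of its windows lay between 63251 and 64701 bp. CDK9, the kinase of P-TEFb, had 1 window of 1.22 at 3346 bp, the lowest strongest value of this role.

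CDK7, CDK19, CDK11A and CDK11B had no listed window. CDK11A and CDK11B are near-identical copies, and how reads with several matches were treated is not given in the sources used here, so their lack of a window is uncertain.

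Among the other CDKs, CDK17, a kinase of the PCTAIRE group, had 8 windows. Counted from the 5′ end, 6 of them lay within 328 bp, with signal values of 2.75, 1.65, 1.65, 2.11, 1.71 and 2.67, and the remaining pair lay at 65628 bp with 1.52 and at 120078 bp with 1.81. CDK10, a partner of cyclin M, had 1 window of 1.91 at 999 bp, just inside the 1000 bp limit. CDK16 had 1 window of 1.85. CDK5, CDK14, CDK15, CDK18 and CDK20 had none.

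The CDK inhibitors held the strongest window of all members. CDKN2B, p15INK4B, an inhibitor of CDK4 and CDK6, had 6 windows, with signal values of 2.27 at 110 bp and 3.13 at 210 bp near the 5′ end. The other 4, between 3260 and 4060 bp, had 1.19, 1.39, 1.13 and 1.20. The window of 3.13 (q-value 1.26e-11) overlapped by 36 bp a window of 1.92 on the opposite strand, annotated to the antisense RNA CDKN2B-AS1. The library kit was strand-specific, but whether the counting used strand is not given in the sources used here.

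CDKN2A, which encodes p16INK4A and p14ARF, had 1 window of 2.40 at 1121 bp (q-value 3.12e-05). CDKN1B, p27KIP1, an inhibitor of cyclin E- and cyclin A-bound CDK2, had 7 windows between 291 and 841 bp, with signal values of 1.76, 2.20, 1.5, 1.06, 1.39, 1.87 and 1.08 in 5′ to 3′ order. CDKN1A, p21CIP1, which p53 induces, differed in position, with 3 windows of 1.33, 2.17 and 1.23 at 7798, 7848 and 7998 bp. The strongest CDKN1A window had a q-value of 3.44e-11, and no CDKN1A window lay near either gene end. CDKN1C, CDKN2C and CDKN2D were not listed.

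CDKN2AIP, named for binding p14ARF and not itself a kinase inhibitor, had 5 windows. Their signal values were 1.32, 1.63, 1.96, 2.68 and 1.61 at 100, 250, 950, 1500 and 1600 bp. The strongest of them (q-value 1.80e-09) lay outside the 1000 bp limit.

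Of the CDC phosphatases, CDC25B, which activates CDK1 by removing inhibitory phosphates, had 1 window of 2.32 at 18122 bp, and CDC14A had 1 window of 1.98 at 7901 bp. The CDC25B window lay 993 bp from the 3′ end and was the only member window within 1000 bp of it. CDC25A and CDC25C were not listed.

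Of the CDC genes of ubiquitin ligases, CDC34, an E2 enzyme of the SCF ligase, had windows of 1.82, 2.62 and 1.26 at 1, 51 and 151 bp. CDC20, the activator of the anaphase-promoting complex (APC/C), had 1 window of 1.38 at 551 bp (q-value 0.002373). The APC/C subunit genes CDC16, CDC23, CDC26 and CDC27 had none.

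Of the 5 CDC genes of other function, CDC42, CDC123 and CDC37 were listed, and CDC40 and CDC73 had no window. CDC42, a small GTPase that governs cell polarity, had windows of 1.91, 2.09 and 2.38 at -27147, -22397 and -22347 bp, that is, upstream of its RefSeq interval. All 3 overlapped windows of the long non-coding RNAs LINC00339 and AL590556.3 on the same strand, whose values ranged from 1.71 to 2.38, and to which gene they belong cannot be told apart. CDC123, an assembly factor of the translation initiation factor eIF2, had 1 window of 2.08 at 28 bp, and CDC37, a co-chaperone of HSP90, had 1 window of 1.06 at 7409 bp.

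How many windows were tested in a gene can be read from its p- and q-values, because the q-values follow a Benjamini-Hochberg adjustment within the gene. There a q-value is the p-value multiplied by the number of windows tested and divided by its order, unless a later position gives a smaller value, which is then carried over. Such q-values carry no correction across genes, and a gene with few tested windows can be listed at a less small p-value. CDC123 was listed with 4 tested windows and CCNC and CCNH with 5 each, and the shares of listed genes include them. In the 32 members with fewer than 9 listed windows, a median of 26.5 windows were tested and 11.1% of them listed, beside 32 and 8.33% in 5799 coding genes. The densest members were CCNG1, with 6 of 17 tested windows listed (35.3%), CCNL1, with 5 of 16 (31.2%), and CDKN1B, with 7 of 27 (25.9%). CDC37 stood at the other end, with 1 of 64.

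CDK12 and CDK13 reached the limit of 9 listed windows, with 119 and 92 windows tested. In CDK13 the last listed window stood at position 16 in the order of p-values, and 8 positions before it were not listed or tied. In CDK12 the last stood at position 11, and positions 3 and 7 were missing in the same way. If these derived positions hold, both genes had further windows below the q-value limit that the table does not give. Their places are unknown, so statements on the windows of CDK12 and CDK13 cover the listed ones only.

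**Figure D5:**
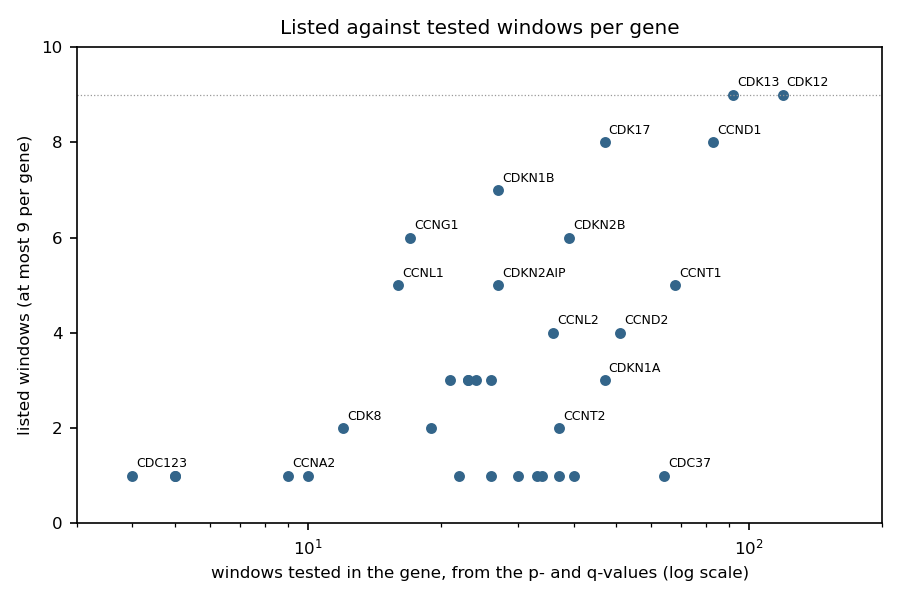
Listed windows per gene (at most 9, dotted line) against the number of windows tested in it, derived from its p- and q-values (log scale), 1 point per member gene. CDK13 and CDK12 sit on the limit, and CCNG1 and CCNL1 have many listed windows for 17 and 16 tested.

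Other genes of the cell cycle, from a list of 66 genes in 5 groups outside these names, gave a similar share of listed genes. Their pooled share of windows near the 5′ end was lower. Of them, 31 were listed (47.0%, Wilson interval 35.4 to 58.8), with 89 windows and a median strongest signal value of 2.13. Of those windows, 31 (34.8%) lay within 1000 bp of the 5′ end, close to the 31.1% of all coding genes and below the 57.5% of the members. The difference was not tested.

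Within this list the APC/C genes were listed most often, with 8 of 12 (66.7%), beside 31.8% of all coding genes. They were led by FBXO5, an APC/C inhibitor, at 2.53. Genes with CDC names are outside the list, among them the unlisted APC/C subunits CDC16, CDC23, CDC26 and CDC27 and the listed activator CDC20. The unlisted replication genes CDC6, CDC7 and CDC45 are outside it too. The order of the groups depends on this split and was not tested. The Rb and E2F group had 6 of 13, with E2F3, a transcription factor of S phase genes, at 3.86, above every member. The mitotic and checkpoint kinases also had 6 of 13, with WEE1, which inhibits CDK1 and CDK2, at 3.29, and 63.6% of their windows lay near the 5′ end. The SCF and Cks group had 3 of 7, with FBXW7, the ligase subunit that recognises cyclin E, at 3.0 and no window near the 5′ end. Replication licensing had 8 of 21, from 1.60 in MCM7 to 2.97 in DBF4, the activator of CDC7.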

How the data were processed

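RIP-seq libraries of SNU638 cells (2 IP-YTHDF1, 2 Input) were represented by 1 deposited table of windows annotated to genes. The submitters' processing notes name STAR 2.7.3a and GRCh38; the peak caller is not given in the sources used here. A legend of the study, not its methods, speaks of peaks from the union of replicates. The signal value was deposited by the authors as a score without a stated scale, and each p-value and q-value is also the authors' own. Depth per sample is unknown, and 0 columns of single libraries were left unused.

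Of 26820 rows, 1 repeat was dropped. Symbols were matched to RefSeq GRCh38.p14 (6368 of 6674 coding symbols), and 23634 of 24754 coding windows were placed. Gene strand was that of the window. Tested windows per gene were solved from p- and q-values, a step tested on simulated data. They came within 1% of a whole number in 100.0% of 5799 genes with fewer than 9 listed windows. Where many windows were tested, any value would come that close, so the check says little for such genes. Among the members under the limit the largest deviation was 0.513%. Shares carry 95% Wilson intervals, which cover counting error only. No test was run, because replicates could not be told apart. Named genes were a core of 17 cell cycle genes (9 listed) and the 2 members with the strongest window in each of 12 roles, and other members were named at the ends of ranges or counts. CCNT1, CDK13, CDK16 and CCNH also appear because their windows had sequence. Members and lists were chosen with earlier results of these data known. Alternatives were another q-value limit, a signal limit, shared windows left out, touching windows joined, genes with 9 windows left out, exact symbols and 1 window per gene. Computations ran in Python 3.11.15 with SciPy 1.17.1, NumPy 2.4.6 and pandas 2.3.3, and figures were drawn with matplotlib 3.10.9.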

Additional observations from a re-analysis of the deposited data

How the results depend on the processing

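The family share of 43.0% became 26.6% with q limited to 0.001 (21.2% of all coding genes) and 29.1% with signal values from 2 upward (22.0%). These shares, 21 and 23 of 79 genes, were above the background in value only. Both lay below the interval of 32.7 to 54.0, which belongs to the 43.0% at the looser limit. A stricter limit can only lower a share, and that of all coding genes fell too. No interval was computed for the stricter shares, and the difference was not tested. The number of windows fell from 113 to 42 and 35 under the same limits. The share of windows near the 5′ end rose to 69.0% (37.0% in other genes) and 74.3% (41.3%), and was 44.2% (24.5%) within 500 bp in place of 1000 bp; alternatives for this share were chosen after seeing the data. The median distance from the 3′ end, 13551 bp against 17729 bp, became 28251 bp against 27423 bp with signal values from 2 upward, which turned the order. The median over the windows of a gene was 1.837 (1.91 in others) in place of 2.19. Without the windows shared with other genes, 40.5% of the family and 106 windows were left. No paired analysis was possible because each window has a lone value for all libraries, which hides the replicates; for the same reason the replicate block and leaving out a replicate were not run. Depth is unknown, so no value here carries a replicate error.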

Other observations

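Genes whose symbols begin like those of the family but fall outside the naming rule numbered 19 in the table, with 66 windows, and 18 of them were protein-coding. Unlisted genes with such symbols were not counted, so no share can be set beside the 31.8% of all coding genes. Effectors and regulators of CDC42 made up much of this group, which describes its names and is not a result about binding. CDC42BPA, a kinase that binds CDC42, had 4 windows with a strongest signal value of 2.58, CDC42SE2 had 1 of 2.54 and CDC42EP3 had 2 with a strongest of 2.35. CDC42EP4 reached the limit of 9 windows with a strongest value of 1.94. CCNDBP1, a cyclin D1-binding protein, had 1 window of 2.36 (q-value 4.36e-09), CDK5R1, the p35 activator of CDK5, had 6 windows up to 1.81, and CDCA5, the cohesin protector sororin, had the lowest strongest value, 1.57. CDK5 itself had no listed window. The only long non-coding RNA of the group was CDKN2B-AS1.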
